A study of Mus musculus with 6 samples.

Results

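The genes described are *Egr1* with its relatives *Egr2* and *Egr3*, the EGR corepressor genes *Nab1* and *Nab2*, and a group of other immediate-early genes, *Fos*, *Fosb*, *Jun*, *Junb* and *Ier2*. They were chosen by name, and all 10 were found among the 47069 genes counted in inguinal subcutaneous white adipose tissue (SC-WAT), the fat pad under the skin of the groin. Fat pads of 3 *Egr1*+/+ and 3 *Egr1*-/- female C57BL/6 mice, 2 weeks old, had been sequenced with 1 library per mouse. The mice came from heterozygous intercrosses and from 4 litters, and 1 *Egr1*+/+ and 1 *Egr1*-/- mouse, not named, were littermates. No mouse was treated. The mutant allele is a germline one, so *Egr1* was inactivated in all cells of the animal and from conception: it carries *LacZ* in the 5′ untranslated region and a frameshift ahead of the part that encodes the DNA-binding domain. The counts are of bulk tissue, in which fewer cells of a type and less RNA per cell cannot be told apart.

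Immediate-early genes are transcribed within minutes of a stimulus, without new protein synthesis, because the factors that switch them on already sit in the cell. Growth factor signals reach them through RAS, RAF and MAP kinases, which act on SRF and its ELK partners at CArG boxes, and signals through cyclic AMP reach them through CREB and its CRTC coactivators. Most encode transcription factors: the EGR proteins bind GC-rich sites with 3 zinc fingers, FOS and JUN proteins pair to form AP-1, and NAB1 and NAB2 bind EGR proteins and hold back their activity. In fat they are known to respond to feeding, insulin and cold, and also to the handling of tissue.

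The sequences just ahead of the start sites are given here for the members whose windows held a searched motif, since the protein missing in the *Egr1*-/- mice binds one of these motifs. RefSeq windows of 250 bases before the start (GRCm38.p6) were matched for 7 of the 10 members, all but *Egr1*, *Egr3* and *Ier2*. They were searched on both strands for the EGR site (GCGNGGGCG), the cyclic AMP response element (TGACGTCA), the AP-1 site (TGANTCA) and the CArG box. Of all 32851 windows, 4.70% held an EGR site, 1.55% a cyclic AMP response element, 6.75% an AP-1 site and 1.47% a CArG box. The 3 windows below run 5′ to 3′ along the gene, with the matched motif in capitals. That of *Nab1* (chr1:52500449-52500698, minus strand) held 3 EGR sites, whose first bases lay 141, 109 and 38 bases before the RefSeq start. The annotated *Nab1* gene reaches to 52500679, so most of this window and all 3 sites lie inside it. Of its bases 80.8% were G or C, which the share over all windows does not allow for. The window of *Fosb* (chr7:19310046-19310295, minus strand) held 1 EGR site, 50 bases before the start. Shown for *Egr2* is a window (chr10:67537619-67537868, plus strand) with a CArG box 72 bases before the start. It is 1 of several windows of *Egr2*, for different starts. The most upstream (chr10:67535249-67535498) held no searched motif, and another (chr10:67537316-67537565) held a different CArG box. The remaining ones overlapped the window shown and held the same box.
Nab1: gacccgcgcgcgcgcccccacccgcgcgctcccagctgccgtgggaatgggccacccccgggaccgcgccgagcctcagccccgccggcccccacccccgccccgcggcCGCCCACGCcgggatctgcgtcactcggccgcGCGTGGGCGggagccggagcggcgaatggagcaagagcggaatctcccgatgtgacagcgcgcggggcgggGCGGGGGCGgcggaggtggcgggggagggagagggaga
Fosb: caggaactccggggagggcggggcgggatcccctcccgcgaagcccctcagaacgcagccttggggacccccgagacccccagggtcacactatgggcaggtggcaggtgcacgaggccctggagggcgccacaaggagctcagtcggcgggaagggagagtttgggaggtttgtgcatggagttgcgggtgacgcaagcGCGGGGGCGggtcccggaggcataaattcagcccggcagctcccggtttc
Egr2: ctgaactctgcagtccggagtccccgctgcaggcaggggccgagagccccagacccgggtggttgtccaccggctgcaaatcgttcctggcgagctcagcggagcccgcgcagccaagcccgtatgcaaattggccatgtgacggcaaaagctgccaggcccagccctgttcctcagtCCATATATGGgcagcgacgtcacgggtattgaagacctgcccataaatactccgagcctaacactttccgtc
The windows of *Jun*, *Junb*, *Nab2* and *Fos* held none of these letters in full, which says nothing of what binds there. The *Nab2* window (chr10:127666704-127666953, minus strand) lies inside the annotated gene, which reaches to 127668568. The bases ahead of that outermost *Nab2* start were not searched. A match is a description of the letters, not a site of binding.

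The libraries held 29661984 to 42357981 gene counts each, 50.0% to 66.3% of them from mitochondrial genes, the highest share in *Egr1*-/- replicate 1. Levels are given as CPM, the count relative to the library size after TMM scaling. The difference between genotypes was tested by the quasi-likelihood method of edgeR over 17667 genes, which included all 10 members, with Benjamini-Hochberg adjustment. Fold changes are *Egr1*-/- over *Egr1*+/+. The 7 adipocyte markers listed, such as *Adipoq* and *Plin1*, were detected in every mouse and summed to 7460 to 8010 CPM in *Egr1*+/+ and 6380 to 7420 CPM in *Egr1*-/- mice. That sum was lower in every *Egr1*-/- mouse, by a narrow margin between the closest pair, with 5 of 7 genes lower. Summed markers of stromal cells (1810 to 1850 against 983 to 1390 CPM, 6 of 6 genes lower), macrophages (282 to 366 against 214 to 251 CPM, 6 of 6 lower) and Schwann cells (293 to 406 against 194 to 255 CPM, 5 of 5 lower) were lower in every *Egr1*-/- mouse, as were those of blood (175 to 264 against 85.7 to 165 CPM, 4 of 5 lower). Those of lymphocytes were 71.9 to 81.2 CPM in *Egr1*+/+ mice and 59.5, 148 and 103 CPM in *Egr1*-/- replicates 1, 2 and 3, with 6 of 6 genes higher by fold change. The other lists overlapped between genotypes: endothelial cells (378 to 476 and 345 to 515 CPM), mammary epithelium (0.815 to 9.99 and 5.27 to 8.28 CPM), skeletal muscle (468 to 5000 and 263 to 5510 CPM) and heat shock genes (474 to 507 and 463 to 548 CPM). No marker was at 0 in every mouse and 0 of all these markers passed the adjusted threshold, which 0.0170% of all tested genes passed. In edgeR, an unadjusted p under 0.05 was reached by 5 of 6 stromal and 4 of 6 macrophage markers. It was also reached by 3 of 5 Schwann cell and 3 of 5 blood markers. Adipocytes had 2 of 7, endothelial cells and lymphocytes 1 of 6 each, and tested heat shock genes 1 of 7. Muscle and mammary epithelium had 0. Over all tested genes, 5.06% were higher and 5.60% lower at that p. The part of these markers in the results was not tested.

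*Egr1* was the member with the largest difference, and it was lower in every *Egr1*-/- mouse. *Egr3* and *Junb* were higher and *Nab1* slightly lower in every *Egr1*-/- mouse, and for the other members the genotypes overlapped. In edgeR 0 of the 10 members passed an adjusted p of 0.05, where 0.0170% of all tested genes did. At an unadjusted p under 0.05, 2 of 10 were higher (*Egr3*, *Junb*) and 1 lower (*Egr1*), against 5.06% and 5.60% of all tested genes. The genotypes did not overlap, with every mutant higher, in 2 of 10 members (8.15% of all genes) and, with every mutant lower, in 2 of 10 (8.10% of all genes). In DESeq2 1 member, *Egr1*, passed the adjusted threshold, against 2.89% of the genes with an adjusted p, and *Egr3* and *Fosb* received none there. Of the 10 fold changes 3 were positive and 7 negative with a median log2 fold change of -0.16, beside 0.00 over all tested genes. That median was 0.01 without *Egr1*+/+ replicate 3 and -0.28 without *Egr1*+/+ replicate 2. The counts of lower members, the negative fold changes and the median all include *Egr1*, the gene inactivated by design. *Nab1* was the other member lower without overlap.

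**Figure D1:**
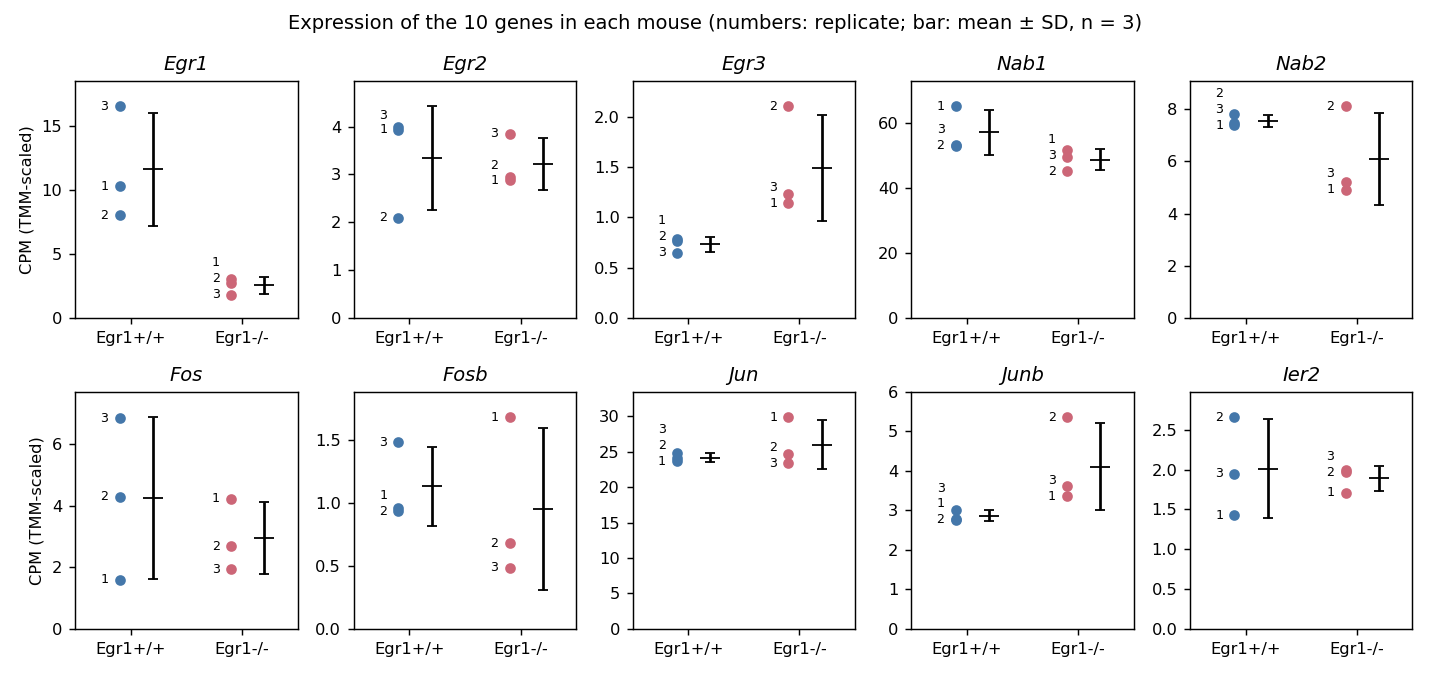
CPM (TMM-scaled, axes from 0) of the 10 genes in each mouse, with *Egr1*+/+ in blue and *Egr1*-/- in red, the replicate number beside each point and the mean ± SD (n = 3 mice) as a bar. The genotypes are apart for *Egr1*, *Egr3*, *Nab1* and *Junb* and overlap for the other genes, and *Fos* runs from 1.60 to 6.84 CPM among *Egr1*+/+ mice alone.

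*Egr1* (ENSMUSG00000038418.7, GRCm38 chromosome 18, 34859823 to 34864984, plus strand) is the inactivated gene, so it checks the labels. It had 353, 241 and 711 counts in *Egr1*+/+ replicates 1, 2 and 3 and 103, 84 and 57 counts in *Egr1*-/- replicates 1, 2 and 3. In CPM these were 10.3, 8.02 and 16.5 against 3.09, 2.71 and 1.84. The lowest wild-type mouse stood well above the highest mutant, but the wild-type mice differed among themselves by 2.06 times, with replicate 3 on top. On the log2 scale the fold change was -2.19 (standard error 0.299, 95% interval -2.86 to -1.51), a level 4.55-fold lower, with an unadjusted p of 4.32e-05 and an adjusted p of 0.0878. Exact permutation over the 6 mice gave a two-sided p of 0.1, the smallest that 3 against 3 allow. *Egr1* passed the adjusted threshold in DESeq2 (adjusted p = 3.59e-10) and, in edgeR, without *Egr1*-/- replicate 1 (adjusted p = 0.0484, log2 fold change -2.35). *Egr1*-/- tissue kept 22.0% of the wild-type level by this fit, and counts summed over the gene do not show which part of it those reads cover.

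*Egr2* (chromosome 10, 67535475 to 67542188, plus strand) encodes the EGR factor known for its part in Schwann cell myelination and in adipocyte differentiation. Its level was 3.93, 2.10 and 3.99 CPM in *Egr1*+/+ and 2.88, 2.94 and 3.85 CPM in *Egr1*-/- replicates 1 to 3. Wild-type replicate 2 was the lowest of all mice and the mutants lay between the wild-type mice. Its log2 fold change was -0.06 (standard error 0.276, interval -0.68 to 0.57, edgeR adjusted p = 0.962). The interval spans 0, so a difference of either sign within it remains possible. Leaving out a single mouse turned the sign of the fold change, to at most 0.09.

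*Egr3* (chromosome 14, 70077203 to 70082614, plus strand) encodes a further EGR factor, best known from muscle spindles and lymphocytes. It was scarce, with 27, 23 and 28 counts in *Egr1*+/+ and 38, 65 and 38 counts in *Egr1*-/- replicates 1 to 3. That is 0.786, 0.766 and 0.650 CPM against 1.14, 2.10 and 1.23 CPM. The wild-type mice lay close together and every mutant was above them, replicate 2 most of all. Its log2 fold change was 1.02 (standard error 0.346, interval 0.24 to 1.80), a 2.03-fold higher level, with an unadjusted p of 0.0162 and an edgeR adjusted p of 0.331. Without *Egr1*-/- replicate 2 it was 0.70. Lymphocyte markers were highest in the same mouse (148 CPM) and lowest of all in *Egr1*-/- replicate 1 (59.5 CPM), whose *Egr3* was above that of every wild-type mouse, and their part in the difference was not tested.

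Levels of the 3 EGR genes can be set side by side per kilobase of exon. *Egr1* made up 63.2%, 69.3% and 73.6% of their summed per-length level in *Egr1*+/+ replicates 1 to 3 and 38.4%, 31.1% and 22.6% in *Egr1*-/- replicates 1 to 3. *Egr2* made up 31.9%, 23.9% and 23.5% of that sum in the wild type and 47.2%, 44.4% and 62.1% in the mutants. *Egr1* was thus above *Egr2* in 3 of 3 *Egr1*+/+ mice and *Egr2* above *Egr1* in 3 of 3 *Egr1*-/- mice. The share of *Egr3* was 4.87% ± 1.89 (SD, n = 3) in the wild type and 18.1% ± 5.57 (SD, n = 3) in the mutants. Shares add up to a whole, so a lower *Egr1* raises the other shares by itself. The summed level was 3.74 ± 1.21 CPM per kilobase (SD, n = 3, lowest mouse 2.58) in *Egr1*+/+ and 1.80, 1.95 and 1.82 in *Egr1*-/- replicates 1 to 3, the mutants close to each other and all below the wild-type mice. In CPM per kilobase, the difference between mutant and wild-type means was far larger for *Egr1* (0.568 ± 0.143 against 2.59 ± 0.978) than for *Egr3* (0.338 ± 0.12 against 0.167 ± 0.0167).

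**Figure D2:**
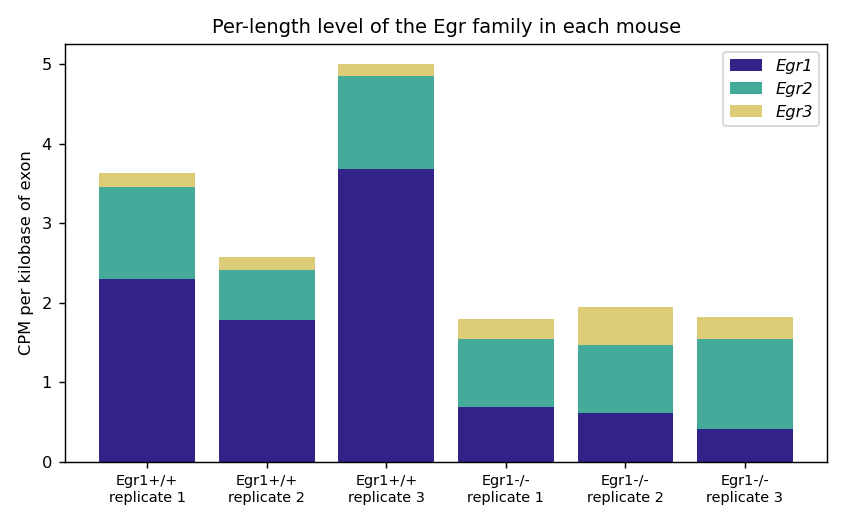
Stacked bars of the per-length level (CPM per kilobase of exon) of *Egr1*, *Egr2* and *Egr3* in each of the 6 mice. The bars of the *Egr1*-/- mice, between 1.80 and 1.95, are lower than those of the *Egr1*+/+ mice, at 2.58 or above, and their largest block is *Egr2* in place of *Egr1*.

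The corepressor genes were both lower by fold change, and only *Nab1* separated the genotypes. *Nab1* (chromosome 1, 52457294 to 52500679, minus strand), whose window above held 3 EGR sites, was the most abundant member per length. It stood at 65.0, 52.9 and 53.3 CPM in *Egr1*+/+ and at 51.5, 45.1 and 49.4 CPM in *Egr1*-/- replicates 1 to 3. Every mutant was below every wild-type mouse, but by a narrow margin between the closest pair. The log2 fold change was -0.23 (standard error 0.123, interval -0.51 to 0.05, edgeR adjusted p = 0.566) and was -0.14 without *Egr1*+/+ replicate 1, the highest mouse.

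*Nab2* (chromosome 10, 127660918 to 127668568, minus strand), which is known as a target as well as a partner of EGR proteins, had 7.39, 7.82 and 7.45 CPM in *Egr1*+/+ and 4.92, 8.10 and 5.21 CPM in *Egr1*-/- replicates 1 to 3. The wild-type mice were nearly alike, mutant replicates 1 and 3 lay below them and mutant replicate 2 above all. For *Nab2* the log2 fold change was -0.31 (standard error 0.207, interval -0.78 to 0.15, edgeR adjusted p = 0.651) and reached -0.57 without *Egr1*-/- replicate 2. Exons of *Nab2* are overlapped on the opposite strand by *Gm16229* (35.7% of its exonic bases), *Nemp1* (5.1%) and *Stat6* (1.4%). Per mouse *Gm16229* had 0 to 3 counts, *Nemp1* 160 to 262 and *Stat6* 1126 to 2000, against 161 to 321 for *Nab2*, and the strand setting of the counting is not known. Summed per length, *Nab1* and *Nab2* came to 16.5 ± 1.63 CPM per kilobase in *Egr1*+/+ and 13.9 ± 0.271 in *Egr1*-/- mice (SD, n = 3 in each).

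The AP-1 genes had fold changes of both signs, and *Fos* and *Fosb* varied most between mice of the same genotype. *Fos* (chromosome 12, 85473890 to 85477273, plus strand), the FOS partner of AP-1 and a standard marker of recent stimulation, had 55, 129 and 295 counts in *Egr1*+/+ and 141, 83 and 60 counts in *Egr1*-/- replicates 1 to 3. In CPM this was 1.60, 4.29 and 6.84 against 4.23, 2.68 and 1.94. The lowest and the highest mouse of all 6 were both wild type, and the mutants lay between them. The log2 fold change of -0.53 (standard error 0.473, interval -1.60 to 0.54, edgeR adjusted p = 0.753) was 0.01 without *Egr1*+/+ replicate 3 and -0.94 without *Egr1*+/+ replicate 1.

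*Fosb* (chromosome 7, 19302696 to 19310051, minus strand), a FOS relative whose window held 1 EGR site, had 33, 28 and 64 counts in *Egr1*+/+ and 56, 21 and 15 counts in *Egr1*-/- replicates 1 to 3. That is 0.961, 0.932 and 1.48 CPM against 1.68, 0.678 and 0.485 CPM. Mutant replicate 1 was the highest and mutant replicate 3 the lowest of all mice, a 3.47-fold spread within the genotype. For *Fosb* the log2 fold change was -0.25 (standard error 0.478, interval -1.33 to 0.83, edgeR adjusted p = 0.894). It was -0.95 without *Egr1*-/- replicate 1, 0.01 without *Egr1*+/+ replicate 3 and 0.06 without *Egr1*-/- replicate 3.

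*Jun* (chromosome 4, 95049034 to 95052222, minus strand), the main JUN partner of AP-1, was the steadiest member. Its level was 23.7, 24.1 and 24.9 CPM in *Egr1*+/+ and 29.9, 24.7 and 23.4 CPM in *Egr1*-/- replicates 1 to 3. Only mutant replicate 1 stood apart, and the log2 fold change was 0.10 (standard error 0.123, interval -0.18 to 0.38, edgeR adjusted p = 0.827). The antisense gene *Junos*, which shares 7.3% of the exonic bases of *Jun*, had 9 to 23 counts per mouse.

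*Junb* (chromosome 8, 84974484 to 84978718, minus strand), a JUN relative that can hold back JUN activity, had 2.79, 2.76 and 3.02 CPM in *Egr1*+/+ and 3.36, 5.36 and 3.62 CPM in *Egr1*-/- replicates 1 to 3. The wild-type mice were within 1.09 times of each other and every mutant was above them, replicate 2 most of all. For *Junb* the log2 fold change was 0.52 (standard error 0.225, interval 0.01 to 1.03), a 1.44-fold higher level, with an unadjusted p of 0.0451 and an edgeR adjusted p of 0.455. Without *Egr1*-/- replicate 2 it was 0.29. *Prdx2*, a far more abundant gene on the opposite strand, shares 7.5% of the exonic bases of *Junb* and had 1469 to 2317 counts per mouse against 83 to 166 for *Junb*.

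*Ier2* (chromosome 8, 84661331 to 84662852, minus strand) encodes a small nuclear protein induced by growth factors. It had 1.43, 2.66 and 1.95 CPM in *Egr1*+/+ and 1.71, 1.97 and 2.00 CPM in *Egr1*-/- replicates 1 to 3. The mutants were close together inside the wild-type range, and the log2 fold change was -0.08 (standard error 0.282, interval -0.72 to 0.55, edgeR adjusted p = 0.943).

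The codes given to the samples start with 1 number for the 3 *Egr1*+/+ mice and *Egr1*-/- replicate 1 and with another for *Egr1*-/- replicates 2 and 3, and what the number stands for is not stated. With it as a term, the genotype difference rests on *Egr1*-/- replicate 1 alone. The log2 fold change was then -1.91 for *Egr1*, 0.64 for *Egr3*, 0.23 for *Junb* and -0.15 for *Nab1*. It was -0.62 for *Nab2*, -0.01 for *Fos*, 0.57 for *Fosb*, -0.22 for *Egr2* and -0.23 for *Ier2*. For *Jun* it was 0.30, against 0.10 without the term. Each member named here had an edgeR adjusted p of 0.997 or above in that fit.

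**Figure D3:**
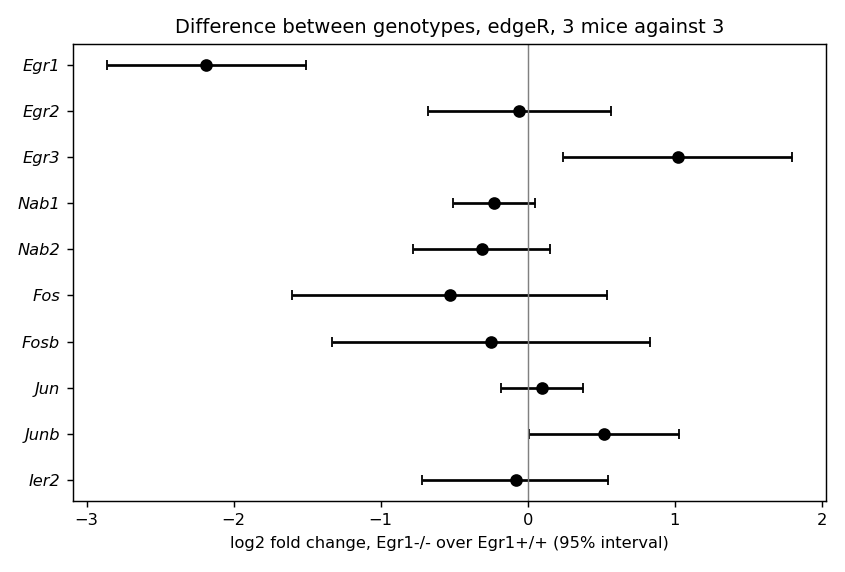
Log2 fold change of each gene, *Egr1*-/- over *Egr1*+/+, with its 95% interval from edgeR's quasi-likelihood fit (3 mice against 3). The intervals of *Egr1*, *Egr3* and *Junb* lie on 1 side of 0 before adjustment, that of *Junb* only just (0.01 to 1.03), and those of *Fos* and *Fosb* are the widest.

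The spread among mice of the same genotype separated the members into steady and variable genes. The standard deviation of log2 CPM within genotypes was 0.84 for *Fos*, 0.67 for *Fosb*, 0.46 for *Egr1* and 0.40 for *Egr2*, against a median of 0.24 over all tested genes. It was 0.13 for *Jun* and 0.14 for *Nab1*, below that median, and between 0.26 and 0.34 for *Junb*, *Nab2*, *Ier2* and *Egr3*. Counting error adds most to the spread of the scarce genes *Egr3* and *Fosb*. Among *Egr1*+/+ mice, *Fos* ran over a 4.27-fold range and *Jun*, its partner, over a 1.05-fold range.

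Per kilobase of exon, *Nab1* (13.9 ± 1.68 CPM per kilobase, SD, n = 3) and *Jun* (7.60 ± 0.188) led in *Egr1*+/+ SC-WAT. *Egr1* (2.59 ± 0.978), *Nab2* (2.57 ± 0.0799), *Fos* (1.81 ± 1.11), *Ier2* (1.32 ± 0.408) and *Junb* (1.24 ± 0.0598) followed, each overlapping with the next in its range over mice. *Egr2* (0.983 ± 0.317) came below *Junb* without overlap, and *Fosb* (0.18 ± 0.0498) and *Egr3* (0.167 ± 0.0167), which overlapped, were the lowest. In *Egr1*-/- SC-WAT *Nab1* (11.9 ± 0.804) and *Jun* (8.15 ± 1.08) again led, each clear of the next gene. *Nab2* (2.07 ± 0.598), *Junb* (1.79 ± 0.472), *Fos* (1.25 ± 0.497), *Ier2* (1.24 ± 0.105) and *Egr2* (0.948 ± 0.16) formed a run of overlapping neighbours. *Egr1* (0.568 ± 0.143) was below *Egr2* in every mutant mouse, overlapped with *Egr3* (0.338 ± 0.12), and *Fosb* (0.152 ± 0.103), which overlapped with *Egr3*, was the lowest. Within AP-1, the summed level of *Fos*, *Fosb*, *Jun* and *Junb* was 10.8 ± 1.39 CPM per kilobase in *Egr1*+/+ and 11.3 ± 1.55 in *Egr1*-/- mice (SD, n = 3 in each), and *Jun* supplied 70.8% and 71.9% of it.

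The genes with the most similar pattern over the 6 mice were found by the root mean square difference in log2 CPM after each gene's own mean was subtracted, a description with no test. For *Egr1* these were *Fam131b* (0.26), *Adamts19* (0.34), *Sfrp4* (0.35), *Klf14* (0.36) and *6430562O15Rik* (0.40). Some of them were scarce in *Egr1*-/- replicates 1 to 3. There *Fam131b* had 17, 12 and 7 counts, *Adamts19* 39, 21 and 14, and *6430562O15Rik* 8, 9 and 3. *Sfrp4*, which encodes a secreted WNT antagonist, had 709, 544 and 1222 counts in *Egr1*+/+ and 335, 159 and 183 counts in *Egr1*-/- replicates 1 to 3, with *Egr1*+/+ replicate 3 highest as for *Egr1*. *Klf14*, which encodes a zinc finger factor, had 130, 105 and 279 counts against 64, 33 and 40. For *Fos* they were *Ccn1* (0.18), *Vcpkmt* (0.24), *Gstm6* (0.26), *Gm19391* (0.28) and *Gm43311* (0.30). *Ccn1*, itself an immediate-early gene that encodes a secreted matrix protein, had 4.80, 12.4 and 14.7 CPM in *Egr1*+/+ and 12.2, 8.43 and 5.85 CPM in *Egr1*-/- replicates 1 to 3. It was thus lowest in the wild-type mouse with the least *Fos* and highest in the wild-type mouse with the most. The last 3 genes listed for *Fos* had under 50 counts in every mouse. Among the members, *Nab1* and *Jun* (0.21) and *Egr3* and *Junb* (0.25) had the most similar patterns and *Egr1* and *Egr3* (1.60) the least similar of the 45 pairs, while *Fos* and *Fosb* differed by 0.52.

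**Figure D4:**
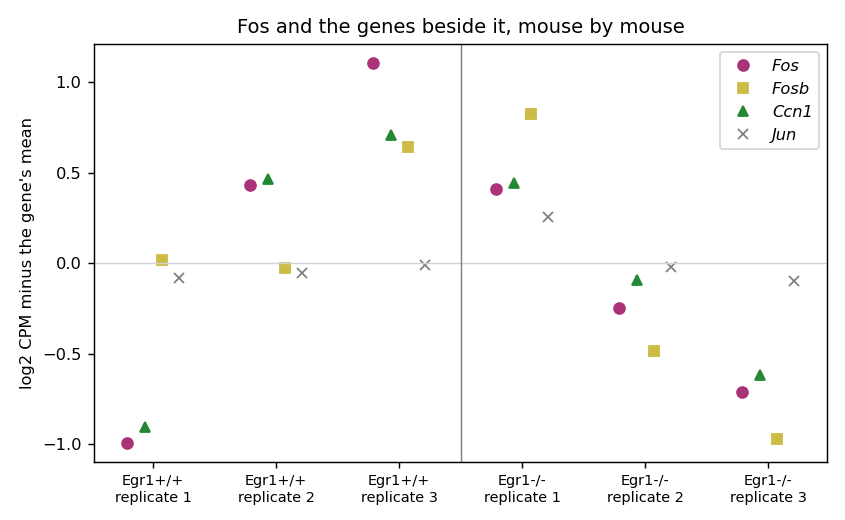
Log2 CPM of *Fos*, *Ccn1*, *Fosb* and *Jun* in each mouse, minus the gene's mean over the 6 mice. *Fos* and *Ccn1* lie close to each other in most mice and are low in *Egr1*+/+ replicate 1, *Fosb* departs from them there, and *Jun* stays near 0.

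Other immediate-early genes were taken from a list of 40, of which 37 were tested. *Egr4* (0 to 1 counts per mouse), *Fosl1* (0 to 4 counts) and *Npas4* (2 to 8 counts) were too low for a test. Of the 37, 24 were higher and 13 lower by fold change with a median of 0.15, and 0 passed the adjusted threshold in edgeR (lowest adjusted p = 0.193). At an unadjusted p under 0.05, 3 were higher (*Csrnp1*, *Klf2*, *Nr4a1*) and 1 lower (*Maff*). The genotypes did not overlap in 4 higher genes, those 3 and *Nr4a2*, and in 1 lower gene, *Ptgs2*. These counts stand beside the 5.06% to 8.15% of all tested genes given above for the same rules.

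*Csrnp1*, a nuclear factor gene induced by AXIN, had 2.04, 2.63 and 2.60 CPM in *Egr1*+/+ and 3.84, 5.46 and 4.72 CPM in *Egr1*-/- replicates 1 to 3. Every mutant was clearly above every wild-type mouse, and the log2 fold change was 0.95 (standard error 0.214, unadjusted p = 0.00161, edgeR adjusted p = 0.193). It was the 1 gene of this list that passed in DESeq2. *Klf2*, a zinc finger factor gene of endothelial cells, T cells and preadipocytes, had 14.5, 16.9 and 14.0 CPM against 20.0, 26.0 and 19.4 CPM, again without overlap (log2 fold change 0.53, standard error 0.147, edgeR adjusted p = 0.256).

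The NR4A genes encode orphan nuclear receptors induced by cyclic AMP. *Nr4a1* had 3.58, 5.63 and 5.27 CPM in *Egr1*+/+ and 5.79, 7.81 and 6.72 CPM in *Egr1*-/- replicates 1 to 3 (log2 fold change 0.49, standard error 0.212, edgeR adjusted p = 0.458). *Nr4a2* had 3.70, 3.76 and 3.11 CPM against 4.50, 4.29 and 4.43 CPM (log2 fold change 0.33). *Nr4a3* had 4.19, 3.86 and 4.06 CPM against 4.14, 6.88 and 5.56 CPM (log2 fold change 0.45). All 3 had higher mutant means, and for *Nr4a3* the lowest mutant fell within the wild-type range. The fold change of *Nr4a1* was 0.30 without *Egr1*+/+ replicate 1 and that of *Nr4a3* 0.27 without *Egr1*-/- replicate 2.

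*Ptgs2*, the inducible cyclooxygenase of prostaglandin synthesis, had 0.990, 1.10 and 0.789 CPM in *Egr1*+/+ and 0.420, 0.775 and 0.162 CPM in *Egr1*-/- replicates 1 to 3. It was scarce, with 34, 33 and 34 against 14, 24 and 5 counts, and received no adjusted p in DESeq2. The closest mice of the genotypes were nearly equal, and the log2 fold change of -1.07 had an unadjusted p of 0.0665 and ran from -1.69 without *Egr1*-/- replicate 2 to -0.68 without *Egr1*-/- replicate 3. *Maff*, a small MAF factor gene, had 2.71, 4.10 and 6.33 CPM against 3.09, 2.36 and 2.20 CPM, and its log2 fold change of -0.78 was -0.41 without *Egr1*+/+ replicate 3. That mouse also had the most *Egr1*, *Fos* and *Ccn1*. *Rhob* (0.23), *Ier3* (0.45) and *Per1* (0.31) completed the 10 genes of this list with the lowest p, all at an edgeR adjusted p of 0.552 or above. Without *Egr1*+/+ replicate 1 these were 0.14, 0.30 and 0.12, and *Per1* was 0.53 without *Egr1*+/+ replicate 2.

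*Egr1*+/+ replicate 1 stood apart on this list. It was the lowest mouse in 18 of the 37 genes (48.6%) and the highest in 0, whereas it was the lowest in 18.5% of all tested genes. Its median distance from the gene means was -0.28 on the log2 scale, against 0.01 over all genes. Without it the median fold change of the list was 0.02. *Egr1*-/- replicate 2 was the highest mouse in 14 of the 37 genes (37.8%), against 19.7% of all tested genes. Summed heat shock markers, which respond to handling, were 507 CPM in *Egr1*+/+ replicate 1 and 492 CPM in *Egr1*-/- replicate 2, both within the range of the other mice. Whether handling had a part in the pattern of these 2 mice was not tested.

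**Figure D5:**
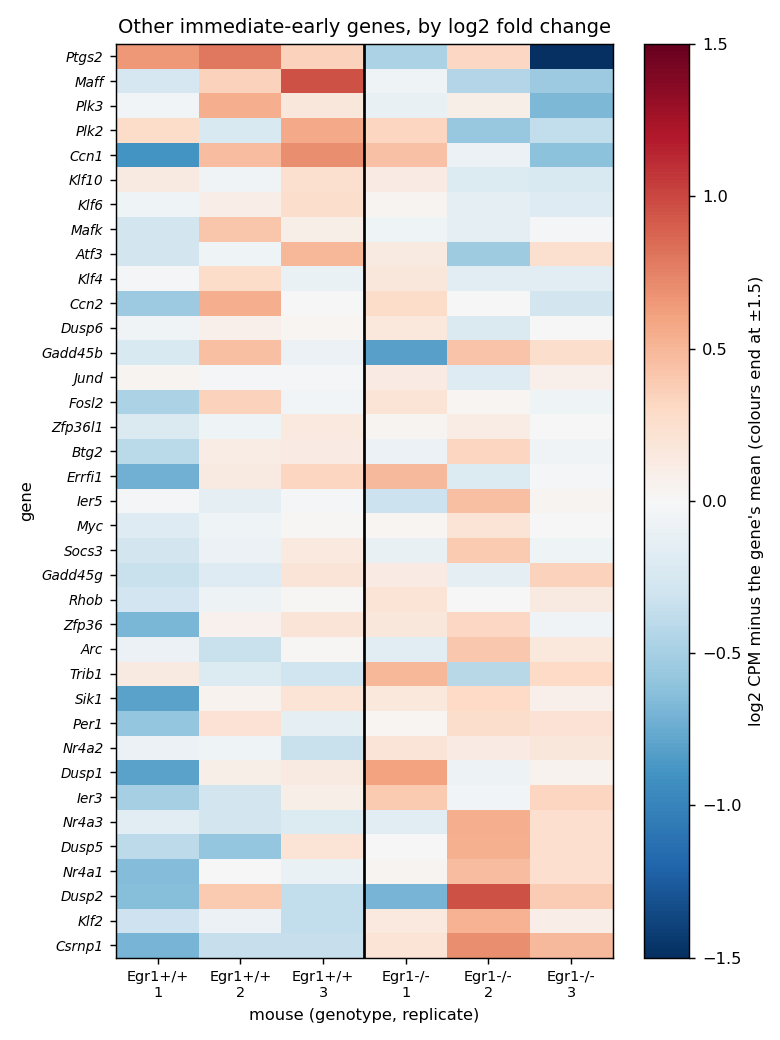
Heat map of the 37 tested genes of the list (rows, from the most negative log2 fold change at the top to the most positive) in the 6 mice (columns), as log2 CPM minus the gene's mean, with colours ending at ±1.5. The first column, *Egr1*+/+ replicate 1, is blue in most rows, with 18 of 37 genes at their lowest there, and *Csrnp1* and *Klf2* at the bottom are red in all 3 *Egr1*-/- mice.

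The genes that carry signals to immediate-early genes were measured from a list of 30, all of them tested. By fold change 19 were higher and 11 lower with a median of 0.05, and 0 passed the adjusted threshold in edgeR or DESeq2. The 1 gene with an unadjusted p under 0.05 was *Crtc2*, a CREB coactivator, with 7.33, 8.29 and 8.56 CPM in *Egr1*+/+ and 9.73, 12.0 and 9.99 CPM in *Egr1*-/- replicates 1 to 3. Its mutants were all above its wild-type mice (log2 fold change 0.39, standard error 0.146, unadjusted p = 0.025, edgeR adjusted p = 0.378). The genotypes did not overlap in 6 higher genes, among them *Crtc2*, its relative *Crtc3* (0.25), the kinase *Araf* (0.16), and *Srf* (0.22) and *Elk1* (0.24), which act at CArG boxes. The kinase *Braf* (-0.08) was lower in every mutant mouse by a small amount. Over all tested genes 8.15% were higher and 8.10% lower without overlap, and 5.06% were higher at an unadjusted p under 0.05. The MAP kinases *Mapk8* (-0.01), *Mapk9* (0.09) and *Mapk14* (0.01) had fold changes close to 0, and *Creb1* had -0.08. *Mrtfa* (0.40), a coactivator of SRF, and *Elk3* (-0.27) were among the 5 genes with the lowest p, and both overlapped between genotypes. *Mrtfa* was 0.15 without *Egr1*-/- replicate 2, *Elk3* -0.43 without *Egr1*-/- replicate 1 and *Crtc3* 0.14 without *Egr1*-/- replicate 3.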

How the data were processed

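Total RNA of inguinal SC-WAT from 3 *Egr1*+/+ and 3 *Egr1*-/- mice had been depleted of ribosomal RNA and made into strand-specific libraries. The authors mapped reads to GRCm38 with TopHat2 and Bowtie2 and counted them per gene with featureCounts, and the deposited values are raw counts, 1 file per mouse. The strand setting of the counting is not given in the sources used here, so a gene and its antisense neighbour may share counts. Genotypes came from the sample titles. Ensembl identifiers without version were named through the GENCODE annotation of GRCm38 (46488 of 47069 genes). The members and gene lists were chosen with earlier results of these data known.

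The counts were fitted with edgeR 4.0.16 in R 4.3.3 (TMM, filterByExpr, quasi-likelihood test, Benjamini-Hochberg adjustment over 17667 genes, threshold 0.05), and the fit was tested on simulated data. Log2 CPM used a prior count of 2. Exonic length was that of merged exons. Alternatives were DESeq2 1.42.0, limma-voom (limma 3.58.1), RLE and upper-quartile scaling, no filter on low counts, no mitochondrial genes, the replicate number as a block, the sample code as a term, and leaving out each mouse. All members were named, and of the lists the 10 and 5 genes with the lowest p, together with genes whose genotypes did not overlap, those too low for a test, some MAP kinases and *Creb1*, which were named after their values were seen. Single values of some listed genes are not reported here. No sample was left out.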

Additional observations from a re-analysis of the deposited data

How the results depend on the processing

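There were 247 alternative values for the members, the lists and the count over all genes, of which 217 stayed the same. Fold changes among these kept their direction and their side of the threshold. Counts stayed within 1.5 times, and medians of lists moved by less than the spread between mice. Another 17 counts moved, most of them the count over all genes. In addition, 3 fold changes came to pass the threshold and 10 fold changes of members turned sign. The median of the members also turned sign, to 0.01 without *Egr1*+/+ replicate 3. Among the members, 1 gene, *Egr1*, passed in DESeq2 (log2 fold change -2.19, adjusted p = 3.59e-10), without the filter on low counts (-2.18, adjusted p = 1.39e-20 in edgeR) and without *Egr1*-/- replicate 1 (-2.35), and 0 to 1 member passed with each mouse left out, when its fold change ran from -2.39 to -1.84. Of the other immediate-early genes, 1, *Csrnp1*, passed in DESeq2 and without the filter, and 0 with any mouse left out. Over all genes 3 passed in the fit reported, 372 in DESeq2, 1 in limma-voom, 0 with upper-quartile scaling, 552 without the filter, 1 with the sample code as a term, and 0 to 59 with each mouse left out, the 59 without *Egr1*-/- replicate 1. Counts of the members, the signalling list and the non-overlapping members (4 to 5 with a mouse left out) were otherwise within 1.5 times. Same-numbered mice did not deviate together (correlations -0.0888, 0.106 and -0.126, and 2 of 6 mice correlated best with their own number). With the replicate block 0 genes passed, *Egr1* was at -2.14 (adjusted p = 0.198 in edgeR), and no call on a member or list changed. With a mouse left out, *Egr2* ran from -0.30 to 0.09, *Fos* from -0.94 to 0.01, *Fosb* from -0.95 to 0.06, *Jun* from -0.01 to 0.17 and *Ier2* from -0.29 to 0.16. *Egr2* turned to 0.06 and 0.09 without *Egr1*+/+ replicates 1 and 3 and to 0.02 and 0.01 without *Egr1*-/- replicates 1 and 2, and *Fos* to 0.01 without *Egr1*+/+ replicate 3. *Fosb* turned to 0.57 with the sample code and to 0.01 and 0.06 without *Egr1*+/+ replicate 3 and *Egr1*-/- replicate 3, *Jun* to -0.01 without *Egr1*-/- replicate 1 and *Ier2* to 0.16 without *Egr1*+/+ replicate 2. The cause was not tested. Low counts limit *Egr3* and *Fosb*, with 15 to 65 counts per mouse, and *Ptgs2*, with 5 to 34.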
